A study of Mus musculus with 8 samples.

Results

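The genes described here are the secreted ligands, receptors, agonists, secreted inhibitors and feedback targets of Wnt signalling in mouse uterus. They were taken by name from the gene table of the array, as every probe set with a single symbol of the Wnt, Fzd, Sfrp, Dkk or Rspo families or with the symbol Frzb, Wif1, Lrp5, Lrp6, Lgr4, Lgr5, Axin2, Lef1, Tcf7, Nkd1, Notum, Rnf43 or Znrf3. This gave 54 genes of the 19938 with a single symbol, and no probe set carried the symbol Tcf7. Wnt4 had 2 probe sets, of which the brighter stood for the gene. The name rule also took in Fzd10os, a long non-coding RNA named for the strand opposite Fzd10, which is neither ligand nor receptor.

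Wnt proteins are lipid-modified secreted ligands that bind Frizzled receptors together with the co-receptors Lrp5 and Lrp6, which leads to accumulation of beta-catenin and transcription through Lef1 and its relatives. R-spondins bind Lgr receptors and keep Frizzled proteins at the cell surface by removing the ubiquitin ligases Rnf43 and Znrf3, while Sfrp proteins, Frzb, Wif1, Dkk proteins and Notum act outside the cell to restrain the pathway. In mouse uterus the pathway is known for its roles in gland formation, in the luminal epithelium at implantation and in the decidual response of the stroma, with Wnt4 a gene of decidualising stroma, Wnt7a of the luminal epithelium and Wnt5a of the stroma.

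The tissue was the uterus of C57BL/6 females, an inbred laboratory strain, that were young and virgin before mating. It was collected on day 3 at 22 h, with the night of mating counted as day 0. In the pregnant group, 4 females had mated with stud males, had shown no blue dye reaction, which would mark an attached embryo, and had healthy-looking blastocysts in the fluid flushed from the horns. In the pseudopregnant group, 4 females had mated with vasectomised males and carried no embryo. All females had therefore mated, no tissue came from unmated animals, and the kind of male cannot be told apart from the presence of embryos. The RNA came from whole uterine tissue, and each array is labelled as a biological replicate.

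On the 8 arrays the median intensity lay between 55.2 and 56.3, and within-group correlations of log2 intensity ran from 0.984 to 0.994. The first principal component held 46.1% of the variance. It separated the groups, with pregnant arrays at -26.7 to -4.9 and pseudopregnant arrays at 6.8 to 20.3. Pregnant replicate 2 (-26.7) and pseudopregnant replicate 1 (20.3) lay farthest out on it. Markers of the tissue were present, with 10 of 10 smooth muscle genes, 11 of 11 listed epithelial genes on the array and 10 of 10 stromal genes above the intensity filter, while 6 of 8 blastocyst genes were under each array's 40th percentile throughout. Of the other 2, Gata6 was above it on all 8 arrays, and Eomes, which NK cells also express, was above it on the 4 pregnant arrays and below it on the 4 pseudopregnant arrays (difference 0.72, limma adjusted p = 0.057). Eomes thus entered the test only through the group where it was high, so its difference and p are descriptive only. Over the 17494 probe sets that passed the filter, the median log2 difference (pregnant minus pseudopregnant, here and below) was 0.0019. The filter kept a probe set that exceeded its array's 40th percentile on at least 4 of 8 arrays, a line at log2 intensities between 5.23 and 5.32.

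Of the 54 Wnt genes 42 passed the filter, and 1 of them fell in the pregnant uterus, the R-spondin gene Rspo3. In a bulk sample, fewer cells that express a gene and less RNA per cell cannot be told apart. No Wnt gene rose, and 5 were higher at an unadjusted p under 0.05 without passing the threshold. The test was limma, with Benjamini-Hochberg adjustment across the 17494 probe sets and a threshold of 0.05. The single lower call is 2.38% of the 42 genes, against 0.412% of all probe sets called lower, and 0 higher calls stand against 1.41% of all probe sets called higher. At an unadjusted p under 0.05, 5 Wnt genes were higher (11.9%, against 14.3% of all probe sets) and 3 were lower (7.14%, against 9.43%). The groups did not overlap for 2 genes with the pregnant arrays above (4.76%, against 9.23% of all probe sets) and for 2 with the pregnant arrays below (4.76%, against 5.38%). The differences were small, with a median of -0.03, and 26 of 42 (61.9%) lay below 0, against 49.4% of all probe sets. Apart from Rspo3 the shares of genes at these thresholds were therefore no larger than those over the whole array.

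**Figure D1:**
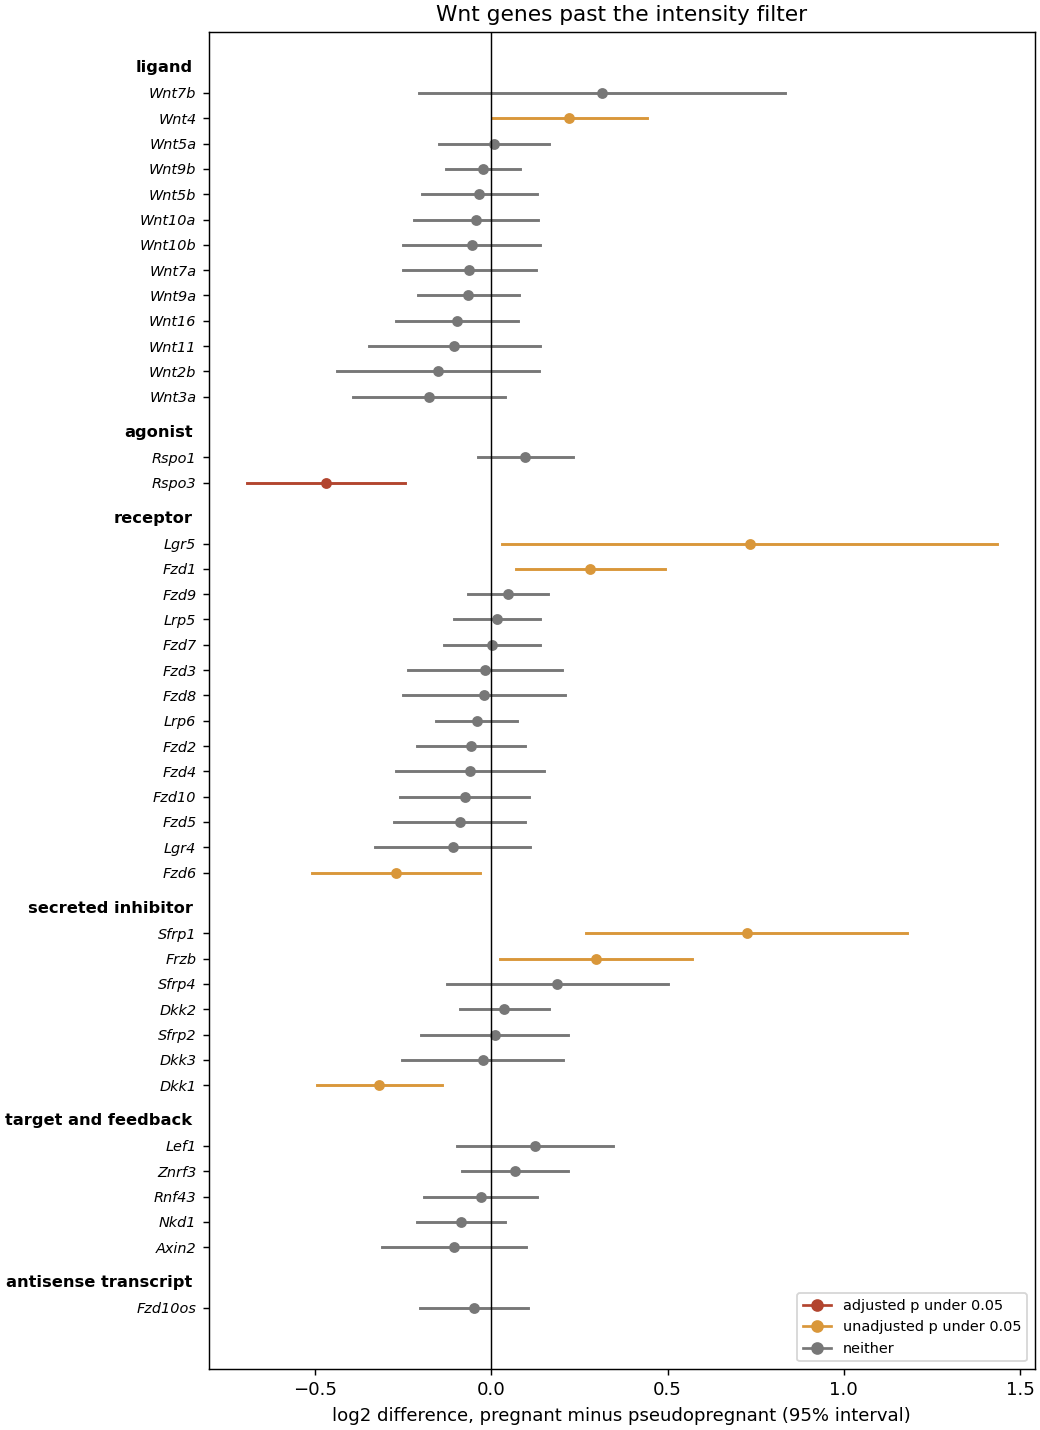
Log2 difference between pregnant and pseudopregnant uterus (horizontal axis, pregnant minus pseudopregnant) for the 42 Wnt genes past the intensity filter, grouped by role, with points for the estimate and lines for the 95% interval from limma (n = 4 arrays per group). Rspo3 at -0.47 is the only gene past the adjusted threshold, and 7 further genes have an unadjusted p under 0.05.

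Among the ligands, 13 of 19 genes passed the filter and none passed the test, 3 with differences above 0 and 10 below, with a median of -0.06. The 6 ligand genes below the filter were Wnt1, Wnt2, Wnt3, Wnt6, Wnt8a and Wnt8b. Wnt2 came above the line on 1 array, pregnant replicate 4, and the other 5 lay below it on all 8 arrays. No test was made for them, and a value below the line shows only that their signal was not separated from that of dim probe sets.

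Wnt4, the ligand of decidualising stroma, had log2 intensities of 6.62, 7.01, 6.60 and 6.64 in pregnant replicates 1 to 4 and of 6.62, 6.44, 6.35 and 6.58 in pseudopregnant replicates 1 to 4. Pregnant replicate 2 stood above the other 7 arrays, while the other 3 pregnant values lay close to the top of the pseudopregnant range, replicate 3 within it. The difference was 0.22 ± 0.098 (SE, limma adjusted p = 0.21), and without pregnant replicate 2 it was 0.13 (adjusted p = 0.37). The dimmer Wnt4 probe set differed by 0.12 ± 0.055 (SE, adjusted p = 0.21), in the same direction.

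Wnt7b, an epithelial ligand, was at 6.53 in pregnant replicate 2 and between 5.29 and 5.47 on the other pregnant arrays, against 5.17 to 5.53 in the pseudopregnant group. The high value on that array made up most of the difference of 0.31 ± 0.23 (SE, adjusted p = 0.44), which was 0.03 without it. Wnt5a, a stromal ligand that acts largely apart from beta-catenin, was at 8.64, 8.42, 8.34 and 8.52 in the pregnant group and at 8.50, 8.40, 8.52 and 8.47 in the pseudopregnant group. Its groups overlapped fully, and the difference of 0.01 had a 95% interval of -0.15 to 0.16.

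The other named ligands also overlapped between groups. Wnt7a, of the luminal epithelium, lay between 5.58 and 5.88 in the pregnant group and between 5.66 and 5.99 in the pseudopregnant group, a difference of -0.06 with a 95% interval of -0.25 to 0.13. Wnt11, a ligand of cell movement, differed by -0.11 (-0.35 to 0.14) and Wnt16 by -0.10 (-0.27 to 0.08). The largest negative difference of a ligand was that of Wnt3a, -0.18 (-0.39 to 0.04), for which pseudopregnant replicate 1 held the highest value at 5.88. The remaining 6 tested ligands, Wnt2b, Wnt5b, Wnt9a, Wnt9b, Wnt10a and Wnt10b, had differences between -0.15 and -0.02. For none of these does the interval reach a change of 1.5-fold. Several lay close to the filter line, with Wnt3a at 5.26 to 5.88 and Wnt10b below the line on 1 array of each group. The processing compresses differences of dim genes, so for such genes the interval does not bound the change in RNA.

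Rspo3, which amplifies Wnt signals through Lgr receptors, was at 7.79, 7.43, 7.75 and 7.86 in pregnant replicates 1 to 4 and at 8.20, 8.24, 8.29 and 7.98 in pseudopregnant replicates 1 to 4. All 4 pregnant values lay below all 4 pseudopregnant values, with pregnant replicate 2 lowest, and the nearest values were those of replicate 4 in each group. The means were 7.71 ± 0.19 and 8.18 ± 0.13 (SD, n = 4 each). Rspo3 fell by 0.47 on the log2 scale (SE 0.10, 95% interval -0.69 to -0.25, limma adjusted p = 0.0496), which makes it 1.38-fold lower in the pregnant uterus.

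The call of Rspo3 lay at the edge of the threshold, as it ranked 317th by p among the 319 probe sets called in the whole table. It ended without any 1 of 7 arrays, with adjusted p between 0.062 without pregnant replicate 2 and 0.12 without pseudopregnant replicate 1, and held without pseudopregnant replicate 4 (0.042). It also ended without the intensity filter (0.087), with replicate numbers as a block (0.073) and with probe sets averaged per gene (0.052). The difference itself lay between -0.53 and -0.38 in all 8 of these fits.

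Markers of vessels, muscle, ovary and oviduct, and epithelium are given beside Rspo3. All 8 endothelial markers had differences below 0, with a median of -0.13, none of them called, and their mean log2 intensity lay between 8.18 and 8.45 on the pregnant arrays and between 8.47 and 8.59 on the pseudopregnant arrays. Of 10 smooth muscle markers 1, the transcription factor gene Myocd, fell (-0.27, adjusted p = 0.0498). With the pregnant arrays below, groups did not overlap for 4 of the 10 and for 3 of the 8 endothelial markers. The share over all probe sets was 5.38%. The 4 muscle genes included Myocd and Myh11 (-0.22, adjusted p = 0.070), whereas Des differed by 0.25 (adjusted p = 0.24). The mean of the muscle list overlapped between groups, with 9.48 to 9.63 against 9.49 to 9.69. All markers of both lists passed the filter. Of 5 ovary and oviduct markers on the array 2 passed it, with a mean of 5.929 to 6.120 in the pregnant group and 6.124 to 6.824 in the pseudopregnant group. Neither was called, with Inha at -0.79 (adjusted p = 0.097, groups overlapping) and Foxl2 at -0.24 (adjusted p = 0.057, groups apart). Amh and Star lay below the 40th percentile on all 8 arrays. Cyp11a1 lay below it on all but pseudopregnant replicate 1 (5.37, against 3.89 to 4.89 on the others). The epithelial list was also lower, with a median of -0.16 and 9 of 11 genes below 0. Its mean was 7.17 to 7.46 on the pregnant arrays, lowest in replicate 2, and 7.38 to 7.76 on the pseudopregnant arrays. The part of these lists in the difference of Rspo3 was not tested.

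Rspo1, the other R-spondin gene past the filter, was at 7.49, 7.57, 7.65 and 7.47 in the pregnant group and at 7.34, 7.49, 7.49 and 7.47 in the pseudopregnant group. Its values overlapped, and the difference of 0.10 ± 0.061 (SE, adjusted p = 0.35) pointed the other way from that of Rspo3. Whether the 2 R-spondin genes differed from each other in their response was not tested. Rspo2 and Rspo4 lay below the 40th percentile on all 8 arrays.

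All 14 receptor and co-receptor genes passed the filter, and none passed the test, with 5 differences above 0 and 9 below. Fzd1, a Frizzled receptor, was at 8.06, 8.49, 8.05 and 8.22 in the pregnant group and at 7.84, 7.94, 8.02 and 7.89 in the pseudopregnant group. Its groups did not overlap, although the nearest values, pregnant replicate 3 and pseudopregnant replicate 3, lay close together and pregnant replicate 2 was again the highest. The difference was 0.28 ± 0.095 (SE, adjusted p = 0.12), and 0.19 (adjusted p = 0.18) without pregnant replicate 2.

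Fzd6, a Frizzled receptor known for planar cell polarity, was at 7.97, 7.59, 8.01 and 7.95 in the pregnant group and at 8.38, 8.09, 8.13 and 8.01 in the pseudopregnant group. The groups met at pregnant replicate 3 and pseudopregnant replicate 4. The difference of -0.27 ± 0.11 (SE, adjusted p = 0.17) was -0.17 without pregnant replicate 2, the lowest array, and -0.19 without pseudopregnant replicate 1, the highest. The list of epithelial markers ran alongside, with 9 of 11 below 0, a median difference of -0.16, means of 7.17 to 7.46 in the pregnant and 7.38 to 7.76 in the pseudopregnant group, and the same 2 arrays at its lowest and highest ends. The part of the epithelial share in Fzd6 was not tested.

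Lgr5, an R-spondin receptor and a marker of epithelial progenitors, had the widest spread of the tested Wnt genes. It was at 7.91, 6.60, 6.57 and 6.97 in the pregnant group and at 6.67, 5.53, 6.44 and 6.48 in the pseudopregnant group. Pregnant replicate 1 stood highest and pseudopregnant replicate 2 lowest, and the other 6 arrays lay between 6.44 and 6.97. The difference of 0.73 ± 0.32 (SE, adjusted p = 0.19) came to 0.43 without pregnant replicate 1 and to 0.48 without pseudopregnant replicate 2.

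The related receptor Lgr4 differed by -0.11 (95% interval -0.33 to 0.11). The co-receptors Lrp5 and Lrp6 had differences of 0.02 (-0.11 to 0.14) and -0.04 (-0.16 to 0.07). Lrp5 lay between 7.29 and 7.37 in the pregnant group and between 7.21 and 7.40 in the pseudopregnant group. Fzd4, which also serves vessels, differed by -0.06 (-0.27 to 0.15), with its highest value, 7.12, in pseudopregnant replicate 3. The other 7 Frizzled genes, Fzd2, Fzd3, Fzd5, Fzd7, Fzd8, Fzd9 and Fzd10, had differences between -0.09 and 0.05, and the antisense-named Fzd10os differed by -0.05 (-0.20 to 0.10). Fzd10 lay below the 40th percentile line on 2 arrays of each group.

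**Figure D2:**
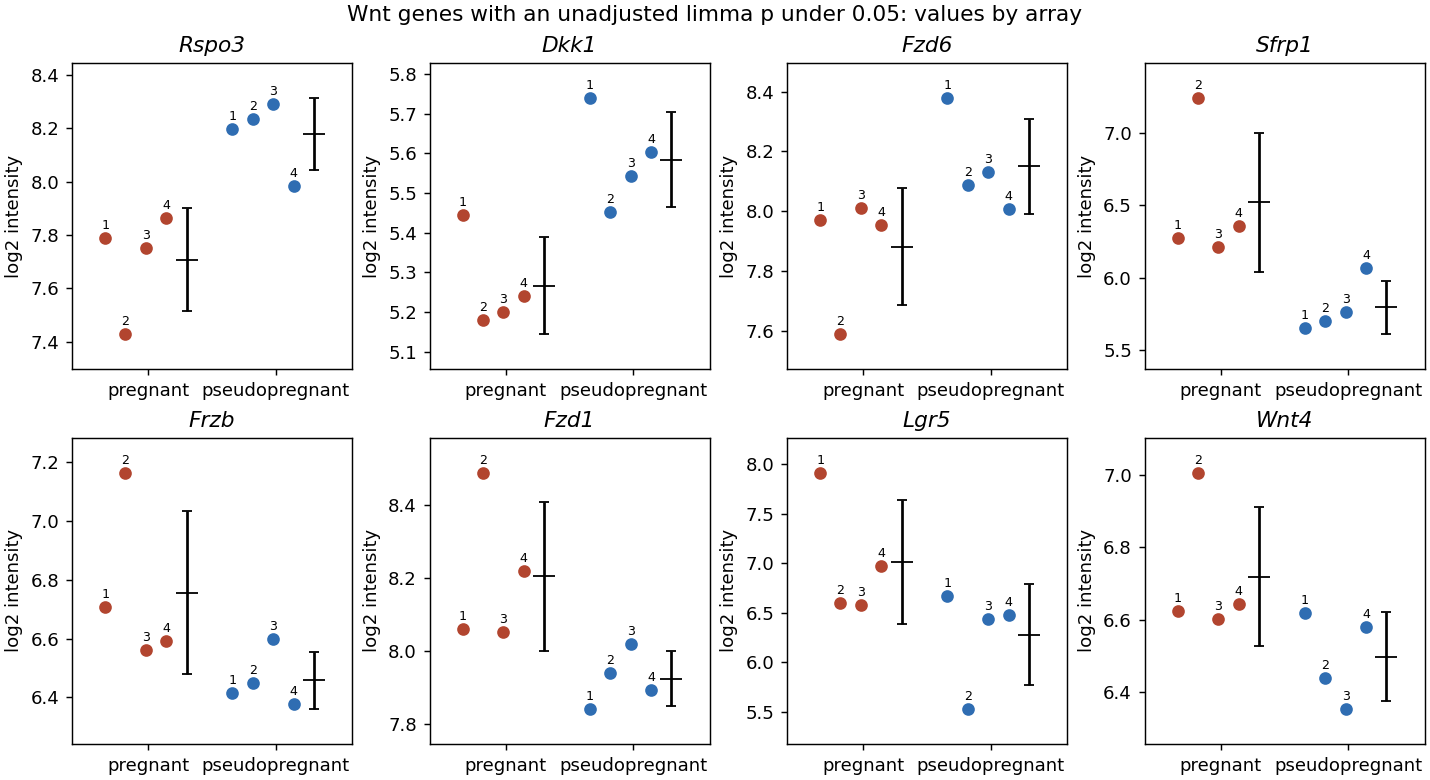
Log2 intensity (vertical axis, a separate range per panel) of the 8 Wnt genes with an unadjusted p under 0.05, with a point per array labelled by its replicate number and the mean ± SD of each group (n = 4) beside the points. Groups are apart for Rspo3, Dkk1, Sfrp1 and Fzd1 and overlap for the other 4 genes, and pregnant replicate 2 holds the highest value of Sfrp1, Frzb, Fzd1 and Wnt4.

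Differences of the secreted inhibitors lay on both sides of 0, and those of Sfrp2, Dkk2 and Dkk3 were close to it. Of 11 genes 7 passed the filter and none passed the test, with 5 differences above 0 and 2 below. Dkk4, Notum and Wif1 lay below the 40th percentile on all 8 arrays, and Sfrp5 did so on all but pregnant replicate 2, where it was at 6.25 against 4.77 to 5.11 on the other 7 arrays.

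Dkk1, which blocks the co-receptors Lrp5 and Lrp6, was at 5.446, 5.181, 5.199 and 5.241 in pregnant replicates 1 to 4 and at 5.738, 5.451, 5.543 and 5.604 in pseudopregnant replicates 1 to 4. Every pregnant value lay below every pseudopregnant value, but pregnant replicate 1 and pseudopregnant replicate 2 nearly met. The difference was -0.32 ± 0.079 (SE, 95% interval -0.49 to -0.14), and it did not pass (limma adjusted p = 0.064). It lay between -0.38 and -0.27 when single arrays were left out. In pregnant replicates 2, 3 and 4 Dkk1 lay below the 40th percentile line, so the size of the difference is not exact.

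Sfrp1, a decoy that binds Wnt proteins, was at 6.27, 7.24, 6.21 and 6.36 in the pregnant group and at 5.65, 5.70, 5.76 and 6.06 in the pseudopregnant group. All pregnant values lay above all pseudopregnant values, and pregnant replicate 2 lay far above the rest. The difference of 0.72 ± 0.20 (SE, adjusted p = 0.081) is 1.65-fold, and without pregnant replicate 2 it was 0.49 (adjusted p = 0.055). Its 95% interval was 0.27 to 1.18, but no fit of the 17 alternatives passed the threshold, with adjusted p between 0.055 and 0.19.

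Frzb, a relative of the Sfrp genes, was at 6.71, 7.16, 6.56 and 6.59 in the pregnant group and at 6.41, 6.45, 6.60 and 6.38 in the pseudopregnant group. It differed by 0.30 ± 0.12 (SE, adjusted p = 0.18), and by 0.16 without pregnant replicate 2, again the highest array. Sfrp4, a stromal gene of uterus, had 9.30 on that array and 8.52 to 8.83 on the other pregnant arrays, against 8.56 to 8.79, and its difference of 0.19 (-0.13 to 0.50) was 0.03 without it. Sfrp2 differed by 0.01 (-0.20 to 0.22), Dkk2 by 0.04 (-0.09 to 0.16) and Dkk3 by -0.02 (-0.25 to 0.20).

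The stromal marker list was slightly higher beside these inhibitors. Differences lay above 0 for 8 of its 10 genes (median 0.07, 0 calls), and its mean lay between 9.73 and 9.89 on the pregnant arrays, highest in replicate 2, and between 9.71 and 9.78 on the pseudopregnant arrays. Its part in the values of Sfrp1, Frzb and Sfrp4 was not tested.

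The feedback targets, whose transcripts are commonly read as a gauge of beta-catenin activity, did not pass the test in either direction. Axin2, a scaffold that promotes breakdown of beta-catenin, was at 6.20, 6.24, 6.40 and 6.63 in the pregnant group and at 6.48, 6.57, 6.44 and 6.41 in the pseudopregnant group, with the highest value among the pregnant arrays. Its difference was -0.11 with a 95% interval of -0.31 to 0.10. Lef1, the transcription factor, differed by 0.12 (-0.10 to 0.35) and Nkd1, an antagonist of Dishevelled, by -0.08 (-0.21 to 0.04). The ubiquitin ligases Rnf43 and Znrf3 differed by -0.03 (-0.19 to 0.13) and 0.07 (-0.08 to 0.22). All 5 intervals lie within a change of 1.5-fold, and a p above the threshold does not show that the groups are alike.

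Among the 42 tested Wnt genes, 2 arrays held a gene's highest or lowest value most often. Pregnant replicate 2 held the highest or the lowest of the 8 values for 20 of the 42 genes, 7 highest and 13 lowest, and pseudopregnant replicate 1 for 21, 13 highest and 8 lowest. The other 6 arrays held an extreme for 5 to 11 genes each. Among the ligands pseudopregnant replicate 1 was above the gene mean for most genes, while pregnant replicate 2 combined high Sfrp1, Frzb, Sfrp4, Wnt4, Wnt7b and Fzd1 with low Rspo3, Fzd6, Wnt2b and Lgr4. These are the same 2 arrays that lay farthest apart on the first principal component.

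**Figure D3:**
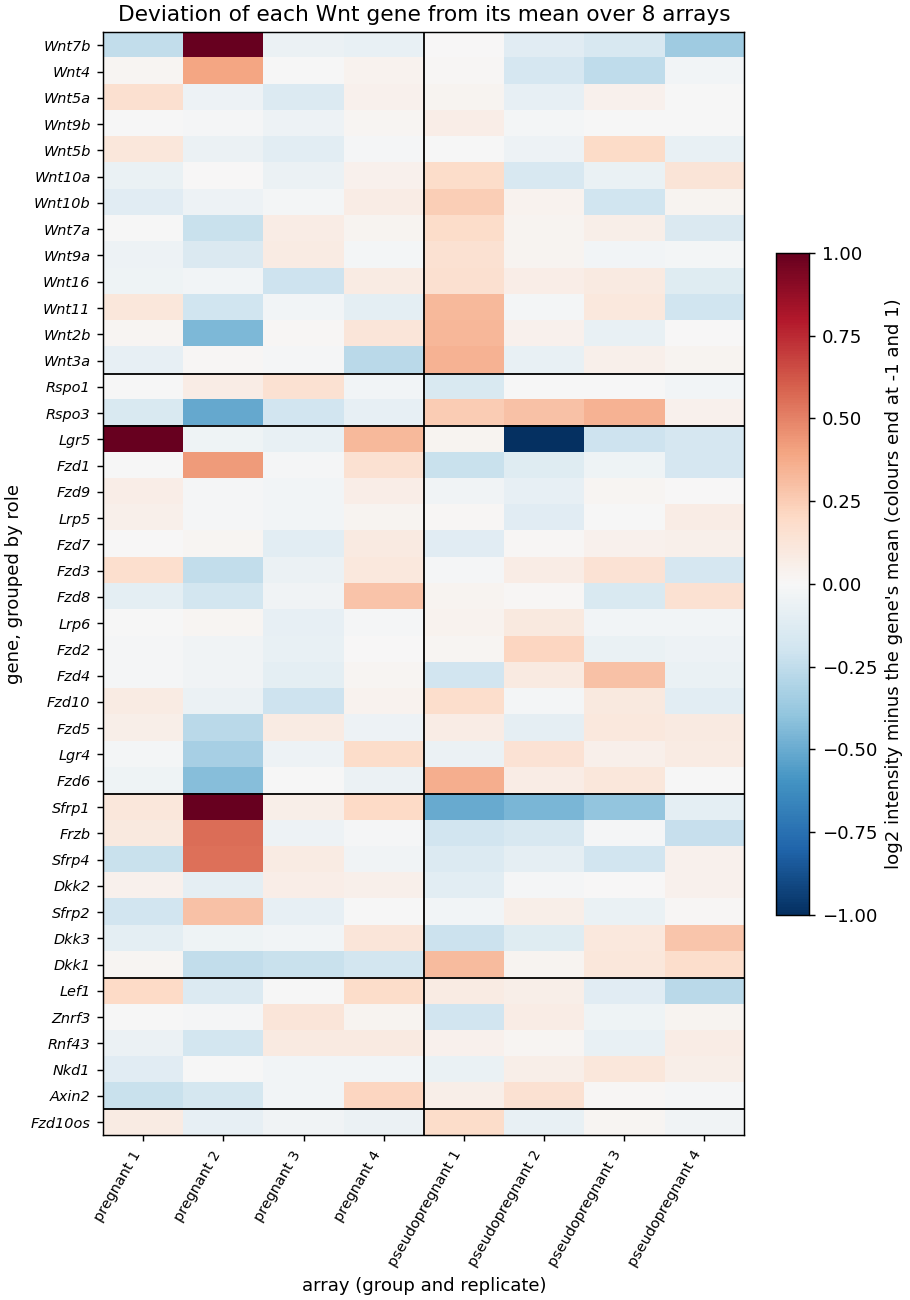
Deviation of each of the 42 tested Wnt genes (rows, grouped by role) from its own mean over the 8 arrays (columns, by group and replicate), in log2 units, with colours ending at -1 and 1. The strongest colours of the pregnant group lie in replicate 2, apart from the high value of Lgr5 in replicate 1, and the row of Rspo3 is below its mean on all 4 pregnant arrays and above it on all 4 pseudopregnant arrays.

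Leaving out each array in turn kept the sign of the difference for all 8 genes with an unadjusted p under 0.05. The fits without pregnant replicate 2 gave the smallest difference for Rspo3, Fzd6, Sfrp1, Frzb, Fzd1 and Wnt4. The smallest size came without pseudopregnant replicate 1 for Dkk1 and without pregnant replicate 1 for Lgr5. Among the other named genes, Wnt5a, Wnt7a, Fzd4, Lrp5, Dkk3 and Rnf43 had differences so close to 0 that at least 1 alternative turned their sign.

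**Figure D4:**
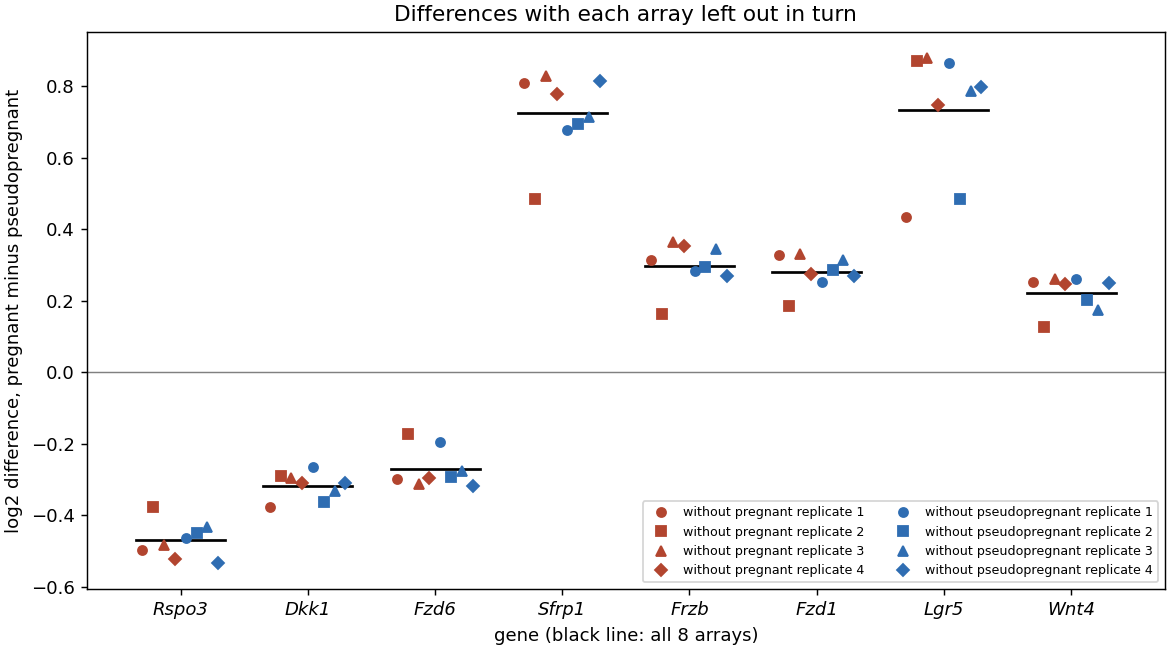
Log2 difference (vertical axis, pregnant minus pseudopregnant) of the 8 Wnt genes with an unadjusted p under 0.05, with a black line for all 8 arrays and a symbol for each fit without 1 array. Every symbol keeps the side of 0 of its black line, and for 6 of the 8 genes the square for pregnant replicate 2 lies nearest to 0.

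Promoter sequence is shown for the members with an unadjusted p under 0.05 that have an entry in the RefSeq promoter table (GRCm38.p6), namely Dkk1, Frzb, Fzd1 and Wnt4, with Rspo3, Fzd6, Sfrp1 and Lgr5 named only. Each is the 250 bases before the annotated start, 5′ to 3′ on the gene's strand. The letters searched, on both strands, were CTTTGAT and CTTTGAA, which are core forms of the site bound by Lef1 and its relatives, and capitals mark a match. The windows are chr19:30549497-30549746 (minus strand, Dkk1), chr2:80447397-80447646 (minus strand, Frzb), chr5:4758217-4758466 (minus strand, Fzd1) and chr4:137277385-137277634 (plus strand, Wnt4).
Dkk1: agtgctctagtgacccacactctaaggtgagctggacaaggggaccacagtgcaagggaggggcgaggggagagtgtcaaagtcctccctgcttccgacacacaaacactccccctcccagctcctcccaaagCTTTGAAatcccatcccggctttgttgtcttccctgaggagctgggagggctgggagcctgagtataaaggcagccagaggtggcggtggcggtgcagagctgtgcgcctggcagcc
Frzb: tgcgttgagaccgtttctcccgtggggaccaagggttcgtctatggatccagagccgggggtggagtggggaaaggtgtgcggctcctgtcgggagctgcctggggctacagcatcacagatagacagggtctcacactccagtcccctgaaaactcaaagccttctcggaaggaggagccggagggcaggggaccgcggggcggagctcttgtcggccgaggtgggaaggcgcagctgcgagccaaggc
Fzd1: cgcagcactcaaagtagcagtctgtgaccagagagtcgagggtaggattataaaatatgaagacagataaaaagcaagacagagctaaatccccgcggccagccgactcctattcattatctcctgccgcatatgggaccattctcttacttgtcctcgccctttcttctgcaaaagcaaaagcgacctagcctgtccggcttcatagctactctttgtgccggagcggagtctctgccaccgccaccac
Wnt4: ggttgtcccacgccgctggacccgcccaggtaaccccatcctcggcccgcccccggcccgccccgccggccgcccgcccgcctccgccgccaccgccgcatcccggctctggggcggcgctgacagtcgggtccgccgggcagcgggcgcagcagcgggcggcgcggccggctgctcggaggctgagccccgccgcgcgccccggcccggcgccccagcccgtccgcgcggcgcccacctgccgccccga

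The Dkk1 window held 1 match to the searched forms, CTTTGAA, from base -117 to base -111 counted from the start, and the other 3 windows held none. No other form of the site was searched or marked. One or the other form was found in 7.48% of the 32851 windows of this length in the table, and in 3 of the 41 windows (7.32%) that belong to 34 of the Wnt genes. The 3 matching windows belonged to Dkk1, Wnt11 and Wnt5b. The share among Wnt genes was thus close to that of all windows. The windows differed in composition, with 85.2% G and C for Wnt4, 64.4% for Frzb, 60.8% for Dkk1 and 51.2% for Fzd1. A match is a run of letters and was not tested as a binding site in these tissues.

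The pathway was followed further in 69 genes that the name rule did not take, from ligand secretion to transcription, of which 63 passed the filter. Sostdc1, Celsr3, Ascl2, Fosl1, Mmp7 and Sp5 did not. Of the tested genes 1 rose (1.59%, against 1.41% of all probe sets) and 0 fell (against 0.412%). At an unadjusted p under 0.05, 11 were higher (17.5%, against 14.3%) and 8 lower (12.7%, against 9.43%), and the median difference was -0.01. The groups did not overlap for 8 genes with the pregnant arrays above (12.7%, against 9.23% of all probe sets) and for 4 with the pregnant arrays below (6.35%, against 5.38%). The list was chosen with earlier results of these data known, so these shares are descriptive only. The counts by class given next are small and are to be read against these same shares.

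The gene that rose was Trabd2b, which encodes a membrane protease that inactivates Wnt proteins. It was at 6.97, 7.37, 6.88 and 6.95 in the pregnant group and at 6.31, 6.50, 6.52 and 6.50 in the pseudopregnant group. The groups were well apart, with pregnant replicate 2 highest and pseudopregnant replicate 1 lowest. Trabd2b rose by 0.58 ± 0.10 (SE, limma adjusted p = 0.030), and by 0.47 (adjusted p = 0.020) without pregnant replicate 2. Its call ended without the filter (0.059) and with averaged probe sets (0.056). The call was lost in 5 of the 8 fits without single arrays, with adjusted p of 0.058 without pregnant replicate 1, 0.059 without pregnant replicate 4, and 0.087, 0.057 and 0.068 without pseudopregnant replicates 1, 2 and 3.

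Markers of immune cells of the uterine wall and of stroma are given beside it. Over all probe sets 1.41% rose. Of 8 macrophage markers 5 rose, with a list mean of 7.22 to 7.42 on the pregnant arrays against 6.97 to 7.06, without overlap. Csf1r (0.20), C1qa (0.08) and Cd14 (-0.27) among them did not pass. Of 5 markers of lymphocytes and natural killer (NK) cells past the filter 3 rose, all of them genes of cytotoxic and NK cells, namely Gzmb (1.51, limma adjusted p = 0.031), Ncr1 (0.99, 0.034) and Prf1 (0.42, 0.041). The T cell markers of that list did not pass, with -0.15 for Cd3e and 0.04 for Cd3g, and Cd79a of B cells and Klrb1c of NK cells lay below the filter. The mean of the 5 tested genes was 6.06 to 6.54 on the pregnant arrays against 5.55 to 5.92. The mean of the stromal list overlapped between groups, with 9.73 to 9.89 on the pregnant arrays against 9.71 to 9.78. It was highest in pregnant replicate 2 and lowest in pseudopregnant replicate 1, as was Trabd2b. The macrophage mean was highest in pregnant replicate 4 and lowest in pseudopregnant replicate 3. The lymphocyte and NK mean was highest in pregnant replicate 2 and lowest in pseudopregnant replicate 2. The part of immune or stromal cells in the value of Trabd2b was not tested.

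Of the other 10 tested genes for secretion and extracellular control, 4 were higher and 2 lower by unadjusted p (under 0.05) without passing. Porcn, the acyltransferase that lipidates Wnt proteins, was at 7.13, 7.35, 7.16 and 7.31 in the pregnant group and at 7.50, 7.51, 7.54 and 7.49 in the pseudopregnant group. Its groups did not overlap and the pseudopregnant values were tight, yet the difference of -0.27 ± 0.061 (SE) missed the threshold (adjusted p = 0.055). It passed in 4 of 17 alternatives, with a repeated quantile normalization (0.039), cyclic loess (0.042), an intensity trend with robust variances (0.042) and array weights (0.032). It did not pass in the others, among them those without the filter (0.098), with the replicate block (0.081) and without single arrays (0.054 to 0.12).

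Cthrc1, a secreted cofactor of Wnt receptor complexes, was at 6.84, 7.51, 6.61 and 6.82 in the pregnant group and at 6.24, 6.43, 6.26 and 6.34 in the pseudopregnant group. It was higher on every pregnant array, by 0.63 ± 0.16 (SE, adjusted p = 0.066). Without pregnant replicate 2 the difference was smaller, 0.44, and passed (adjusted p = 0.047). The bone-associated inhibitor Sost differed by -0.17 (adjusted p = 0.18).

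Of 11 tested receptors and polarity genes of other classes 0 passed, and by unadjusted p 0 were higher and 2 lower. The polarity cadherin Celsr2 differed by -0.29 (adjusted p = 0.15), the receptor-like Ptk7 by -0.15 (0.17), the Wnt5a receptor Ror1 by 0.34 (0.25) and Prickle2 by 0.06 (0.58). Of 19 cytoplasmic transducers 0 passed, and 5 were higher and 1 lower by unadjusted p. Dact1, an adaptor that binds Dishevelled, differed by 0.38 (adjusted p = 0.086), Apc2 by -0.22 (0.13), the scaffold Axin1 by 0.15 (0.19) and the kinase Csnk1a1 by 0.13 (0.19).

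Of 14 nuclear factors 0 passed, and by unadjusted p 0 were higher and 2 lower. Ctnnb1, which encodes beta-catenin, was at 10.06, 10.17, 10.01 and 10.05 in the pregnant group and at 10.01, 9.99, 9.95 and 9.98 in the pseudopregnant group. The groups were apart by less than the spread within either, and the difference was 0.09 ± 0.052 (SE, adjusted p = 0.31). The coactivator Bcl9l differed by -0.13 (0.21) and the corepressors Tle2 and Tle4 by -0.16 (0.21) and 0.12 (0.23). Of 12 known targets 8 passed the filter and 0 the test, and by unadjusted p 1 was higher and 1 lower. Ccnd1, a cyclin that promotes entry into the cell cycle, differed by 0.23 (adjusted p = 0.13), Tnfrsf19 by -0.25 (0.086), Jun by -0.18 (0.35) and Twist1 by 0.14 (0.44).

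**Figure D5:**
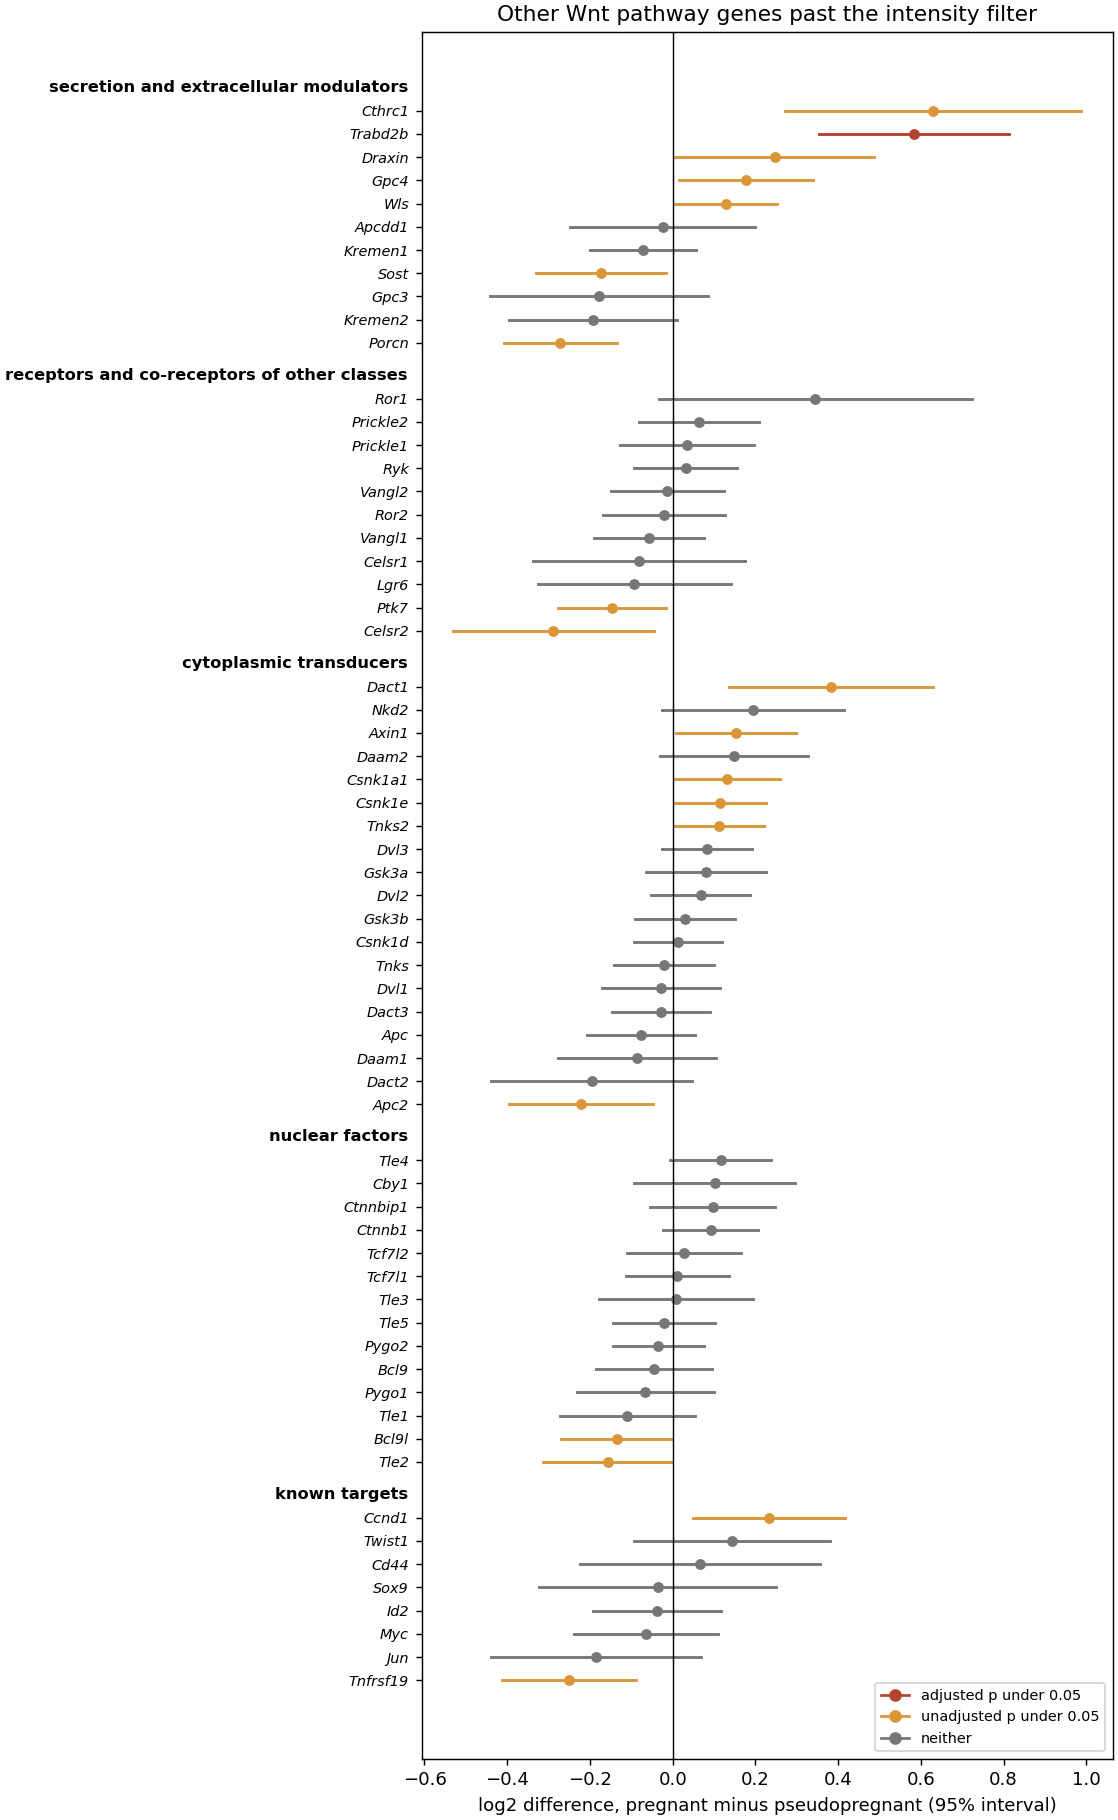
Log2 difference (horizontal axis, pregnant minus pseudopregnant) of the 63 other Wnt pathway genes past the intensity filter, grouped by class, with points for the estimate and lines for the 95% interval from limma (n = 4 arrays per group). Trabd2b at 0.58 is the only gene past the adjusted threshold, and Porcn at -0.27 lies just short of it.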

How the data were processed

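The authors deposited 1 linear intensity per probe set and array. RMA, which corrects background, normalizes quantiles and summarises probes, is named in the submitters' processing notes; its version and the build are not given in the sources here. RMA compresses differences of dim genes. Log2 was taken here. Of 35556 probe sets, 6612 in the block of lowest identifiers, none listed with a gene, were set aside as controls, by inference. The test was limma 3.58.1 (lmFit, then eBayes, two-sided, R 4.3.3) on the 17494 probe sets kept, and the code was tested on simulated data. Intensities are not compared between probe sets. Plots used Python 3.11.15 with matplotlib 3.10.9. Replicates are labelled biological, and precision is limited by 4 arrays per group. An array was called far from its group by Dixon's criterion (0.829 for 4 values).

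Members and lists were chosen with earlier results of these data known. Named with values were members with an adjusted or unadjusted p under 0.05, a list of core members whatever their p, and up to 4 further pathway genes per class with the smallest p. No batch is named in the labels. The 17 alternatives changed the filter, normalization, variance model, array weights, replicate pairing, probe sets per gene or left out an array.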

Additional observations from a re-analysis of the deposited data

Results flagged for a closer look

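Within the groups of 4 arrays, 92 sets of values of named genes were examined, and 10 had a highest or lowest array far from the other 3; chance alone flags about 1 set in 20. In the pregnant group the array was replicate 2 in all 6 cases. It was highest for Wnt4 (7.01, against 6.60 to 6.64), Wnt7b (6.53, against 5.29 to 5.47) and Sfrp1 (7.24, against 6.21 to 6.36). It was lowest for Fzd6 (7.59, against 7.95 to 8.01), Dkk2 (6.61, against 6.74 to 6.76) and Tle2 (5.82, against 5.93 to 5.95).

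In the pseudopregnant group replicate 1 was lowest for Rspo1 (7.34, against 7.47 to 7.49) and Trabd2b (6.31, against 6.50 to 6.52) and highest for Tle2 (6.26, against 5.98 to 6.02). Replicate 2 was highest for Bcl9l (7.83, against 7.62 to 7.64).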

How the results depend on the processing

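The call of Rspo3 held in 7 of 17 alternatives (adjusted p 0.034 to 0.12) and its difference lay between -0.53 and -0.38. The count of lower Wnt calls became 0 without the filter, with the replicate number as a block, with averaged probe sets and in 7 fits without 1 array (0 to 1 over these), and the higher count was 0 throughout. The median over Wnt genes ran from -0.059 to -0.015 without single arrays. Over all probe sets, higher and lower calls were 42 and 12 without the filter, 523 and 185 with an intensity trend, 140 and 34 with the replicate block, 27 to 170 and 12 to 82 without single arrays; lower calls were 109 with cyclic loess and 120 with array weights. Signs turned for Wnt5a (-0.036 requantiled, -0.032 cyclic loess, -0.045 to 0.055 without single arrays), Lrp5 (-0.012, -0.0075, -0.018 to 0.044), Rnf43 (0.0025 array weights, -0.066 to 0.025) and, without single arrays, Wnt7a (-0.12 to 0.0015), Fzd4 (-0.14 to 0.028) and Dkk3 (-0.10 to 0.064). The cause was not tested. Whether replicate numbers pair the arrays cannot be decided from so few arrays per group. Correlations of same-numbered deviations were 0.24, 0.016, -0.10 and 0.044. The value of 0.24, for replicate 1, was the largest of any pair across the groups. Some pregnant arrays correlated best with their own number and others did not. Blocked Rspo3 was -0.47 (adjusted p = 0.073). Blocked Lgr5 was 0.73, with a limma adjusted p of 0.079 against 0.19 without the block.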
